A study of Mus musculus with 33 samples.

Results

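The 10 genes described here encode growth factor receptors and were followed across mouse mammary tumours. They are the 4 fibroblast growth factor (FGF) receptor genes Fgfr1, Fgfr2, Fgfr3 and Fgfr4, the platelet-derived growth factor (PDGF) receptor genes Pdgfra and Pdgfrb, and Met, Kit, Igf1r and Axl. The 10 genes were taken by symbol from the 54532 rows of the count table, and every symbol was found. The samples were 33 mammary tumours with the genotype given as FVB, a mouse strain, and 32 of them fell into 6 groups named from their titles.

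In the first pair of groups, titled M20_7 and VEH_7, 4 tumours had received RP-6306, an inhibitor of the kinase PKMYT1 that holds back entry into mitosis, and 3 had received vehicle. In the second pair, titled MYT and VEH, 11 tumours had received RP-6306 and 4 had received vehicle. The protocol describes the treated tumours as transplants. The treatment field gives 20 mg/kg with the abbreviation bid, for dosing morning and evening, whereas the protocol gives the same dose per day over periods that differed. The 5 tumours titled SPON and the 5 titled WT were untreated. The study's design text names cyclin E transgenic and PyMT tumours, but the labels do not say which title belongs to which model, what the suffix stands for, or which tumour line was transplanted. One vehicle-titled sample whose treatment field names RP-6306 was left out. No label names the animal behind a library, so the spread that p-values rest on may be technical.

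These receptors are single-pass membrane proteins with a tyrosine kinase inside the cell. A ligand brings receptors together, their kinases then phosphorylate each other, and adaptors carry the signal to the RAS-ERK and PI3K-AKT cascades. FGF and PDGF receptors guide the traffic between epithelium and stroma in the mammary gland, PDGF receptors and AXL are typical of mesenchymal cells, and MET and KIT are typical of epithelial cells, with KIT also found on mast cells.

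Libraries of the M20_7 and VEH_7 groups held 26517748 to 34637096 counts, and the others held 13701115 to 20105407. The mitochondrial gene mt-Co1 took 8.44% of the counts of SPON replicate 1 and 10.9% of those of SPON replicate 5, against at most 3% in the other libraries. Over all expressed genes SPON replicates 1 and 4 correlated more with the MYT libraries (mean 0.92 and 0.94) than with the other SPON libraries (0.89 and 0.89), so results that rest on them are also given without them. Levels below are CPM, the counts of a gene scaled to a common library size with TMM factors over the 32 libraries. Where levels of different genes are compared, CPM per kilobase of exon is used.

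The receptor genes differed widely in level, and the receptor with the highest level was not the same in every group. Axl, the receptor for GAS6, had the highest mean level per kilobase in M20_7 (214) and VEH_7 tumours (207), ahead of Met, Fgfr1 and Pdgfra. Met, the receptor for hepatocyte growth factor, led in MYT (263), VEH (227) and SPON tumours (135). In SPON its place rests on replicates 1 and 4, since without both Met stood at 13.8 and Fgfr2, set by replicate 5, led with 165 CPM per kilobase. Fgfr2 also led without replicate 1 alone (124 against 93.4 for Met) and without replicate 4 alone (124 against 85.3). In the WT tumours Fgfr1 led with 46.2 CPM per kilobase, followed by Kit with 34.2, and Met stood at 10.8. Fgfr3 and Fgfr4 had at most 1.64 and 0.40 CPM per kilobase in any group mean, and Fgfr2 had at most 0.69 outside SPON.

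**Figure D1:**
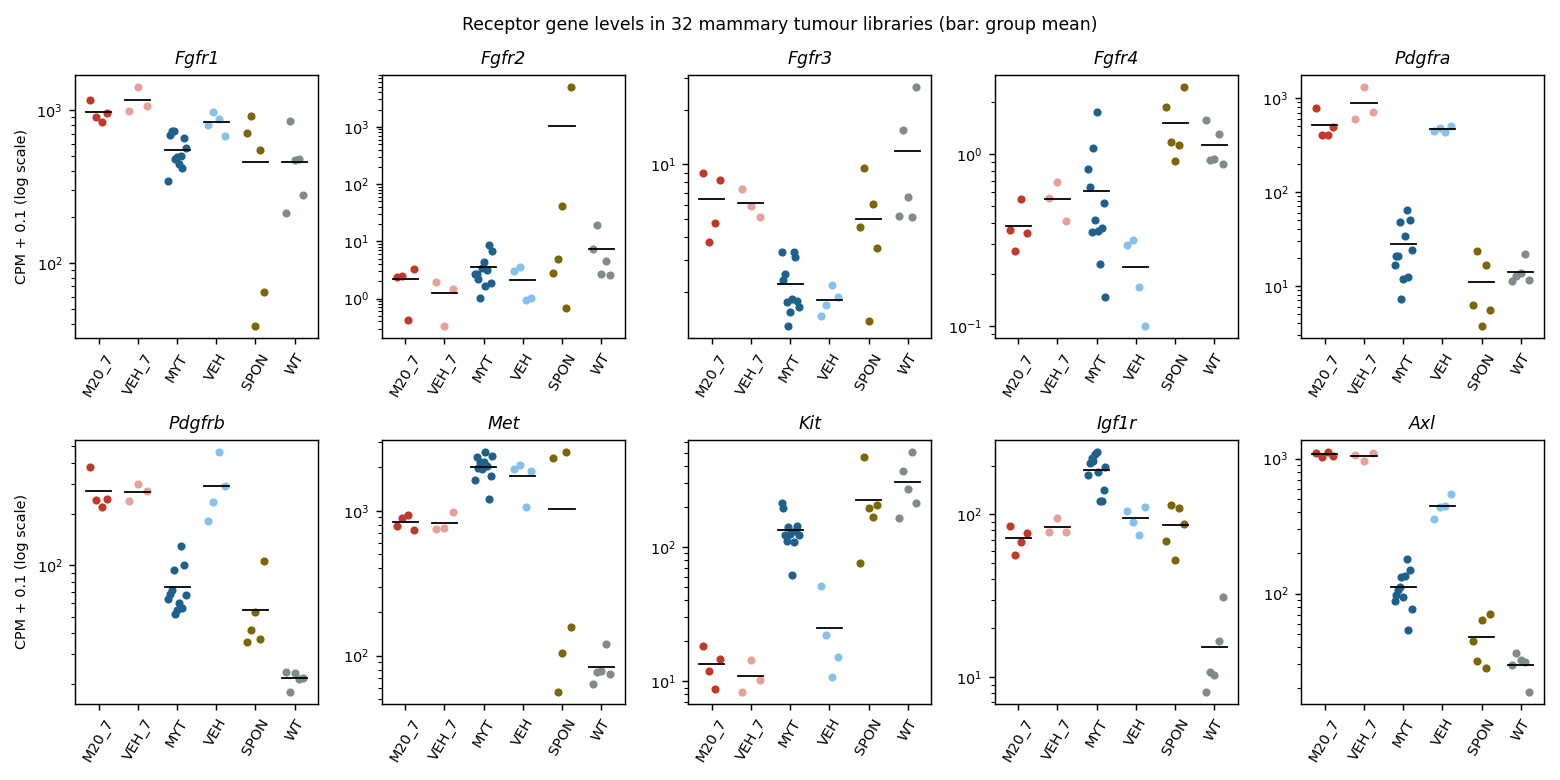
CPM of each of the 10 receptor genes (vertical axis, CPM + 0.1 on a log scale) in each of the 32 libraries, by group. Points are libraries and bars are group means; Pdgfra, Pdgfrb and Axl stand lower in MYT than in VEH, Kit and Igf1r stand higher, Met splits the SPON tumours and Fgfr2 stands at 5055 CPM in 1 SPON tumour.

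Whether RP-6306 changed the receptor genes was asked first within the pair M20_7 and VEH_7. None of the 10 genes passed the edgeR test (Benjamini-Hochberg adjusted p under 0.05), and the percentage called among all 16699 genes tested was also 0. The unadjusted p was under 0.05 for 1033 genes, 6.19% of those tested, 1 of them a receptor gene, and DESeq2 called 55 genes at an adjusted p under 0.05. The ranges of M20_7 and VEH_7 tumours overlapped for all 10 receptors, against 6.67% of all genes whose ranges did not.

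Pdgfra, which encodes the receptor for PDGF-A and PDGF-C and is a stromal marker, was the gene with the unadjusted p under 0.05. It had 782, 399, 409 and 492.8 CPM in M20_7 tumours, against 598, 1326 and 714 CPM in VEH_7 tumours. Most of the gap lay in VEH_7 replicate 2, and the log2 fold change, -0.76 ± 0.30 (standard error; edgeR adjusted p = 0.784), became -0.34 without it. Axl varied least, with 1098, 1030.0, 1124 and 1048 CPM in M20_7 tumours and 1068, 963 and 1095 CPM in VEH_7 tumours, a log2 fold change of 0.05 ± 0.10 (edgeR adjusted p = 0.957). Met had 786, 898, 939.8 and 743 CPM in M20_7 tumours and 747, 756 and 982 CPM in VEH_7 tumours. Its log2 fold change was 0.02 ± 0.14, that of Pdgfrb 0.01 ± 0.18, that of Igf1r -0.23 ± 0.15 and that of Fgfr1 -0.26 ± 0.16. Kit was low in both groups, with 8.64 to 18.2 CPM in M20_7 and 8.30 to 14.2 CPM in VEH_7 tumours and a log2 fold change of 0.29 ± 0.26. The remaining FGF receptors were lower still. Fgfr2 had 0.32 to 3.20 CPM in M20_7 and 0.23 to 1.82 CPM in VEH_7 tumours (log2 fold change 0.86 ± 0.76). Fgfr3 had 3.65 to 8.88 CPM in M20_7 and 5.07 to 7.20 CPM in VEH_7 tumours (0.07 ± 0.31), and Fgfr4 0.17 to 0.45 CPM in M20_7 and 0.31 to 0.59 CPM in VEH_7 tumours (-0.67 ± 0.56).

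In the pair MYT and VEH receptor genes were called in both directions. Of the 10 genes, 9 passed the filter on low counts and 6 of these were called, 2 as higher in MYT (Kit and Igf1r) and 4 as lower (Pdgfra, Pdgfrb, Axl and Fgfr1). The background was high, since 59.5% of all 16021 genes tested were called, 30.5% as higher and 29% as lower, and the share among the receptors is near it. Ranges of MYT and VEH tumours did not overlap for 5 receptors, 2 higher and 3 lower, against 16.9% of all genes higher and 18.2% lower. The median log2 fold change was 0.21 over the 9 receptors and 0.04 over all genes. Libraries of this pair also stood apart over 18184 expressed genes, where 9 of the 11 MYT libraries correlated more with SPON (mean correlations of all 11, 0.89 to 0.91) than with VEH (0.86 to 0.91). That likeness leans on SPON replicates 1 and 4, whose mean correlations with MYT were 0.92 and 0.94. SPON replicates 2, 3 and 5 had 0.89, 0.88 and 0.87, within the range of the VEH libraries. The count of 9 was not taken without SPON replicates 1 and 4. All 4 VEH libraries correlated more with VEH_7 (0.92 to 0.94) than with MYT (0.87 to 0.91). The labels do not say whether MYT and VEH tumours came from the same transplanted line, so treatment and tumour origin cannot be told apart in the values below.

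**Figure D2:**
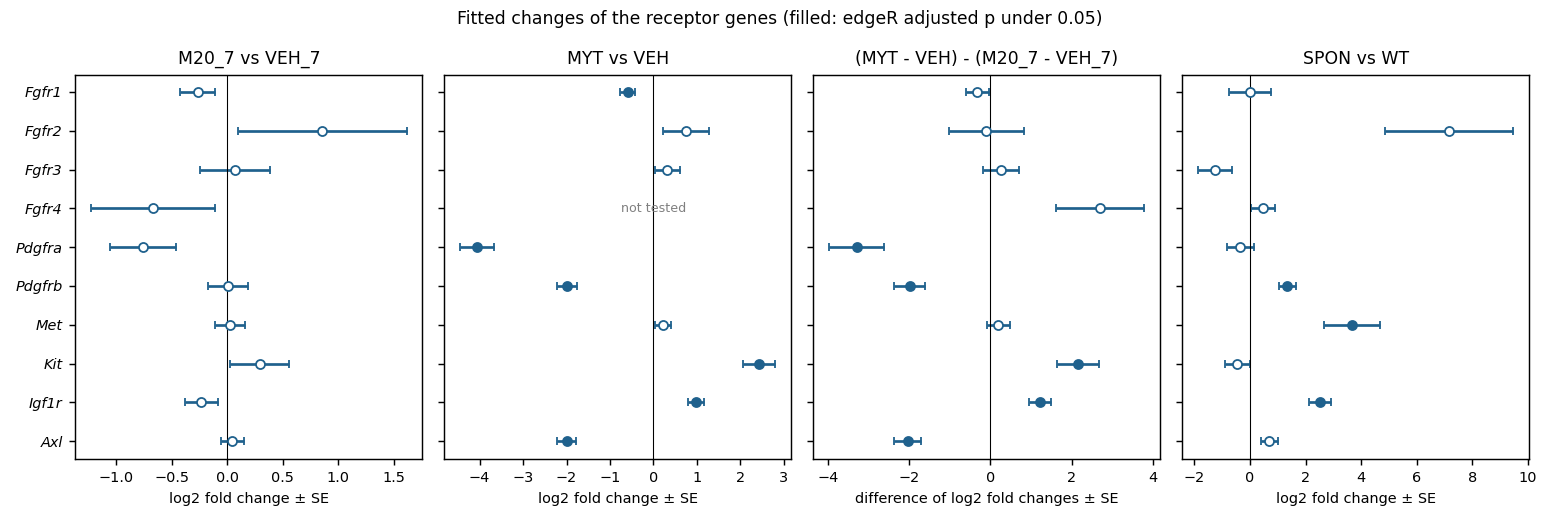
Log2 fold change with its standard error (horizontal axis) of the 10 receptor genes in the 3 comparisons and, in the third panel, the difference between both RP-6306 comparisons; filled points passed the edgeR test. None is filled for M20_7 against VEH_7, 6 for MYT against VEH, 5 for the difference and 3 for SPON against WT.

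Both PDGF receptor genes fell. Pdgfra ranged over 7.18, 20.8 and 63.5 CPM (lowest, median and highest of 11) in MYT tumours, against 450.3, 476, 438 and 502 CPM in VEH tumours. Every MYT tumour lay far below every VEH tumour, and the log2 fold change was -4.06 ± 0.40 (edgeR adjusted p = 2.53e-07). Pdgfrb, the receptor for PDGF-B on pericytes and fibroblasts, ranged over 51.8, 66.7 and 129.9 CPM in MYT tumours, against 182, 236, 465 and 294 CPM in VEH tumours. The groups again did not overlap, and its log2 fold change was -1.98 ± 0.23 (edgeR adjusted p = 1.71e-06).

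The promoters of 4 receptor genes called in MYT against VEH are shown, since these genes moved in opposite directions and one opposite pair lies side by side. Pdgfra and Kit, which encode receptors of the same structural class, are neighbours on chromosome 5 (GRCm38), Pdgfra at 75151322 to 75198206 and Kit at 75574987 to 75656722, with 376.8 kb between them. Igf1r lies at 67952257 to 68233668 and Axl at 25756500 to 25788924 on chromosome 7. Promoter windows of 250 bases before to 50 bases after the start come from RefSeq on GRCm38.p6, are written 5′ to 3′ on the gene's strand, and carry each GC box in the orientation GGGCGG in capitals. The positions just given are RefSeq gene spans, and the start that RefSeq's table uses lies at the edge of the span for Kit and Igf1r but 929 bases inside it for Pdgfra and 191 bases inside it for Axl. Such windows were used for 8 of the 10 genes, and none was used for Fgfr1 or Pdgfrb.
Pdgfra, chr5:75152001-75152300, plus strand: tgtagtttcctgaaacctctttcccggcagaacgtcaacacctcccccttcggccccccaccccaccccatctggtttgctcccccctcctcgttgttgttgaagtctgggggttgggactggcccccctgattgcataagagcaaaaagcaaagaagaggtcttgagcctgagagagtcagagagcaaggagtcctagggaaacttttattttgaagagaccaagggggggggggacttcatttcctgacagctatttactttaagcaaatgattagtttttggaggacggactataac
Kit, chr5:75574737-75575036, plus strand: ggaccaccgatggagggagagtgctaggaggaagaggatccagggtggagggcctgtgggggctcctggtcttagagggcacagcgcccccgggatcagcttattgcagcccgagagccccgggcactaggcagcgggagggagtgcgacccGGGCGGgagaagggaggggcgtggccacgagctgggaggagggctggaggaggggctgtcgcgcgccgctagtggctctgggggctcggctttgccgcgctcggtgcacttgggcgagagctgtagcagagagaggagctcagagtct
Igf1r, chr7:67952007-67952306, plus strand: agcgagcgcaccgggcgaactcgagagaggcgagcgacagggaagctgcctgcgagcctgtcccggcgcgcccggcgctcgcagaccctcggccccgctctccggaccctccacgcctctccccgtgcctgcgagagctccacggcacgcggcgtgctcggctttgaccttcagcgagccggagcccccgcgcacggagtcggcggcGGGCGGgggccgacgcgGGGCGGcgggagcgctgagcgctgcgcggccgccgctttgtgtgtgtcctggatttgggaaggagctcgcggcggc
Axl, chr7:25788684-25788983, minus strand: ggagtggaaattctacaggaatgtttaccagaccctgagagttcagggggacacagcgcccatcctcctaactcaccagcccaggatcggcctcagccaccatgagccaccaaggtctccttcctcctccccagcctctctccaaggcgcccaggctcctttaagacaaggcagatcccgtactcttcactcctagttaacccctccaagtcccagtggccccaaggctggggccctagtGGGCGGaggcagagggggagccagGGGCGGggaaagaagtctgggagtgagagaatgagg
The windows of Kit, Igf1r and Axl held 69%, 76% and 60.3% G and C, and that of Pdgfra held 51%, against a median of 52.7% over all 32851 promoters of the table. The GC box GGGCGG, searched on both strands, was found once in the Kit window, 2 times each in those of Igf1r and Axl, and not in that of Pdgfra, whereas 35.7% of all promoters hold it. The E-box CACCTG (20.2% of all promoters), the AP-1 motif TGANTCA (7.81%) and the TATA box TATAAA (13.6%) had no match in any of the 4 windows. The rising genes Kit and Igf1r and the falling gene Axl thus shared the GC box. It is not particular to called genes. The windows of Met, Fgfr3 and Fgfr4, not called in MYT against VEH, held it 3, 4 and 4 times, and that of Fgfr2 did not hold it. Met also had 1 E-box and 1 AP-1 match. These matches describe letters and are not evidence of binding.

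Kit, the receptor for stem cell factor and a marker of luminal progenitors, rose beside its falling neighbour. It ranged over 62.1, 125 and 214 CPM in MYT tumours, against 51.4, 22.02, 10.7 and 15.2 CPM in VEH tumours. The groups did not overlap, although the lowest MYT tumour and VEH replicate 1 lay close together. The log2 fold change was 2.43 ± 0.37 (edgeR adjusted p = 3.08e-05), and it was 3.09 without VEH replicate 1. Within each MYT tumour Kit exceeded Pdgfra in CPM per kilobase, by a ratio of 1.92 to 21.9, whereas the same ratio lay between 0.0275 and 0.128 in VEH tumours.

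Igf1r, the receptor for insulin-like growth factors, also rose. It ranged over 121, 194.5 and 243 CPM in MYT tumours, against 104.5, 89.8, 74.9 and 110.4 CPM in VEH tumours. All MYT tumours lay above all VEH tumours, with a narrow gap between the groups and a log2 fold change of 0.98 ± 0.19 (edgeR adjusted p = 0.000241). By the number in the MYT titles, Igf1r ran from 181 to 243 CPM in the 5 tumours with the highest numbers and from 121 to 208 CPM in the 5 with the lowest. Met ran from 1954 to 2554 CPM and from 1213 to 2336 CPM in the same tumours.

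Axl fell. It ranged over 53.7, 106 and 181 CPM in MYT tumours, against 354.5, 436, 443 and 551 CPM in VEH tumours, with a wide gap between them and a log2 fold change of -2.0 ± 0.21 (edgeR adjusted p = 6.84e-07). VEH tumours themselves had less Axl than the 963 to 1124 CPM of the M20_7 and VEH_7 tumours.

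The FGF receptor genes and Met moved less. Fgfr1, the main FGF receptor of mesenchymal cells, ranged over 343, 503 and 728 CPM in MYT tumours, against 802.5, 969.6, 878 and 677 CPM in VEH tumours. The groups overlapped, and the log2 fold change was -0.60 ± 0.18 (edgeR adjusted p = 0.00767). With 1 spread estimated over all 32 libraries the Fgfr1 call was lost, and the adjusted p ran from 0.00216 to 0.243 over 19 alternatives. Met ranged over 1213, 2032 and 2554 CPM in MYT tumours, against 1958, 2083, 1054 and 1883 CPM in VEH tumours, with a log2 fold change of 0.21 ± 0.19 (edgeR adjusted p = 0.334). Fgfr2, whose epithelial isoform answers FGF7 and FGF10, had 0.93 to 8.55 CPM in MYT and 0.83 to 3.39 CPM in VEH tumours, and Fgfr3 had 1.20 to 3.23 CPM in MYT and 1.37 to 2.07 CPM in VEH tumours. Fgfr4 was too low for the test, with 1 to 33 counts per MYT library and 0 to 3 per VEH library. The library at 0, VEH replicate 4, allows up to 0.214 CPM at 3 counts, a limit for counting error only.

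Both pairs were then compared with each other. The difference of the log2 fold changes, that of MYT over VEH minus that of M20_7 over VEH_7, was called for 5 of the 10 receptor genes, 2 higher and 3 lower, where 36% of 17095 genes were called, 17% as higher and 18.9% as lower. Pdgfra had -3.29 ± 0.68 (edgeR adjusted p = 0.000693), Pdgfrb -1.98 ± 0.39 (0.000403) and Axl -2.03 ± 0.34 (8.82e-05). Kit had 2.15 ± 0.52 (edgeR adjusted p = 0.00254), or 2.78 without VEH replicate 1, and Igf1r 1.22 ± 0.28 (0.00156). The differences of Fgfr1 at -0.32, Met at 0.20, Fgfr3 at 0.26 and Fgfr2 at -0.10 were not called. Fgfr4 had 2.71 ± 1.08 (edgeR adjusted p = 0.0543), a value that rests on 0 to 3 counts per VEH library. Over 23 alternatives its adjusted p ran from 0.0308 to 0.117, and it was called, as the sixth receptor, with DESeq2 and without M20_7 replicate 3, MYT replicate 8 or MYT replicate 11. The vehicle groups differed too. With no overlap, VEH tumours had less Axl, Pdgfra, Fgfr1, Fgfr3 and Fgfr4 and more Met than VEH_7 tumours. The ranges of Pdgfrb, Kit, Igf1r and Fgfr2 overlapped. The share of all genes without overlap was not computed for these groups, so nothing particular to the receptors is read from this. Over all expressed genes VEH libraries had mean correlations of 0.92 to 0.94 with VEH_7 libraries and 0.97 with the other VEH libraries. The pair a library belongs to, its depth and its title cannot be told apart here.

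Marker genes of several cell types moved with the receptors, and in whole tumours fewer cells of a type and less RNA per cell cannot be told apart. Of the 9 fibroblast markers 8 were called lower in MYT and none higher, and their summed level was 840.2 to 4696 CPM in MYT tumours and 9918 to 17944 CPM in VEH tumours. Of the 9 mesenchymal markers 8 were also lower, with 1153 to 3530 CPM in MYT and 11484 to 23828 CPM in VEH tumours. The 7 macrophage markers, among them Csf1r, were all lower, with 573 to 1243 CPM in MYT and 1947 to 2678 CPM in VEH tumours. Pericyte and smooth muscle markers overlapped between the groups, at 219 to 426 CPM in MYT and 343 to 408 CPM in VEH tumours, with 1 of 7 higher and 2 lower. Pdgfrb was therefore lower where this summed level was not, and of its members Cspg4 stood at a log2 fold change of -2.39 and Notch3 at 1.87. The part of these cell types in the falls of Pdgfra, Pdgfrb and Axl was not tested.

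On the epithelial side all 8 luminal markers were called higher, and their sum was 3802 to 9657 CPM in MYT tumours and 605 to 1836 CPM in VEH tumours. In the M20_7 and VEH_7 tumours, labelled as mammary, the same sum was 30.6 to 63.5 CPM and 21.6 to 83.6 CPM. The part of luminal cells in the rise of Kit was not tested. The summed mast cell markers stood at 0 to 1.96 CPM in MYT and 3.43 to 58.6 CPM in VEH tumours, and Fcer1a had no count in any MYT library. VEH replicate 1, the VEH library with the most Kit (51.4 CPM), also had the highest mast cell sum, and its luminal sum was 1627 CPM. The other VEH libraries did not follow the mast cell sum. Replicates 2, 3 and 4 had sums of 51.8, 19.3 and 3.43 CPM and 22.02, 10.7 and 15.2 CPM of Kit.

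**Figure D3:**
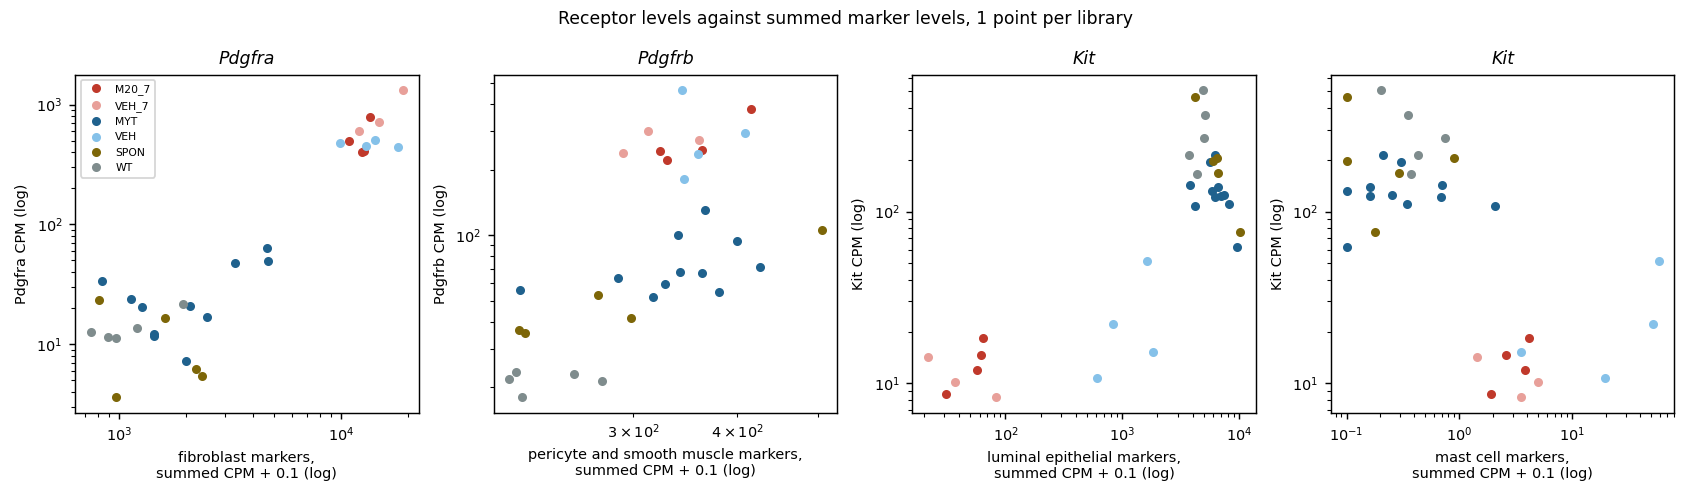
CPM of Pdgfra, Pdgfrb and Kit (vertical axes) against the summed CPM of marker lists plus 0.1 (horizontal axes, all on log scales), with 1 point for each of the 32 libraries. Pdgfra is high only in libraries whose fibroblast sum is at least 9918 CPM, whereas MYT and VEH libraries share their range of pericyte markers. Between groups Kit is high where the luminal sum is high. The mast cell sum does not order the groups in this way. It is at most 1.96 CPM in MYT, SPON and WT, where Kit is high, and 1.34 to 4.86 CPM in M20_7 and VEH_7, where Kit is lowest. Within MYT and within SPON the library with the highest luminal sum, MYT replicate 7 and SPON replicate 1, has the least Kit.

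Among genes with a mean of at least 5 CPM, 11294 in all, the profiles closest to the 4 receptors whose group means of log2 CPM spanned the widest range were sought over the 32 libraries, by the root mean square difference of log2 CPM after centring each gene on its own mean. For Pdgfra, whose own root mean square spread was 2.59, the nearest genes were Arhgap22 (0.82) and the collagen gene Col5a1 (0.84). For Axl (own spread 1.90) they were Wdfy4 (0.37) and Olfml2b (0.44). Kit (1.83) was nearest to Mlph and Stox2 (0.51 each), and Met (1.89) to Capza2 (0.54) and Cav2 (0.69), which lie beside it in the genome. All points share the same libraries and groups, so these are descriptions with no test.

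The untreated SPON and WT tumours were compared next. Of the 10 receptor genes 3 were called, all higher in SPON (Igf1r, Met and Pdgfrb), where 8.38% of 15558 genes were called, 4.52% as higher and 3.86% as lower. Without WT replicate 1, 2, 3 or 4 the receptors called were 1, Igf1r. Ranges of SPON and WT tumours did not overlap for 2 receptors, Igf1r and Pdgfrb, both higher in SPON, against 9.81% of all genes in either direction. The median log2 fold change was 0.59 over the receptors and 0.07 over all genes.

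Igf1r showed the steadiest difference. It had 68.6, 114, 52.7, 109.9 and 87.3 CPM in SPON tumours, against 8.05, 10.7, 10.2, 16.5 and 30.8 CPM in WT tumours. Every SPON tumour lay above every WT tumour, and the log2 fold change of 2.51 ± 0.40 (edgeR adjusted p = 0.00594) stayed called under all 15 alternatives, with adjusted p-values from 4.56e-08 to 0.0227. Pdgfrb had 35.5, 41.7, 53.1, 36.6 and 106 CPM in SPON tumours, against 23.6, 18.0, 23.1, 21.3 and 21.8 CPM in WT tumours. The groups did not overlap, and the log2 fold change was 1.34 ± 0.31 (edgeR adjusted p = 0.0234). The call was lost when WT replicate 1, 2, 3 or 4 was left out. The pericyte list had 1 of 7 markers called higher and 1 lower in SPON, with sums of 218.5 to 505 CPM in SPON and 213 to 275 CPM in WT tumours, and SPON replicate 5 held the most of both. No fibroblast marker was called among 9, and the part of pericytes in the Pdgfrb value was not tested.

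Met split the SPON tumours. It had 2301, 56.4, 104, 2551 and 158 CPM in SPON replicates 1 to 5, against 63.9, 76.8, 78.3, 121 and 75.2 CPM in WT tumours. SPON replicates 1 and 4 lay in the range of MYT tumours (1213 to 2554 CPM) and above all VEH tumours (1054 to 2083 CPM). The other SPON tumours were close to or within the WT range. The log2 fold change was 3.68 ± 1.01 (edgeR adjusted p = 0.0458). It was 0.35 with an adjusted p of 0.52 without SPON replicates 1 and 4, a setting added with the data in view. The call was also lost without SPON replicate 1, without SPON replicate 4, where the value was 2.99, and without any 1 WT tumour, and over 15 alternatives the adjusted p ran from 0.000103 to 0.52.

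Fgfr2 was set by 1 tumour. It had 2.72, 4.80, 41.2, 0.58 and 5055 CPM in SPON replicates 1 to 5, against 7.12, 18.9, 2.62, 4.44 and 2.51 CPM in WT tumours. The log2 fold change of 7.16 ± 2.31 (edgeR adjusted p = 0.0772) was 0.79 without SPON replicate 5. The same 2 tumours with most Fgfr2, SPON replicates 3 and 5, had the least Fgfr1, since Fgfr1 had 707.8, 909, 38.3, 549.5 and 64.3 CPM in SPON replicates 1 to 5, against 211, 843, 474, 479 and 276 CPM in WT tumours. The ratio of Fgfr2 to Fgfr1 in CPM per kilobase was 75.1 in SPON replicate 5 and 1.03 in replicate 3, and at most 0.0322 in each of the other 30 libraries. SPON replicate 5 is also the library with the largest mt-Co1 share.

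The remaining receptors were not called between SPON and WT. Kit had 75.8, 464.5, 196, 168 and 205 CPM in SPON tumours, against 164, 365, 269, 511 and 213 CPM in WT tumours, and its log2 fold change was -0.45 ± 0.44 (edgeR adjusted p = 0.546). Pdgfra stayed at or below 23.3 CPM in SPON and 21.6 CPM in WT tumours, and Axl at or below 71.1 CPM in SPON and 36.2 CPM in WT tumours. Fgfr3 had 1.29 to 9.45 CPM in SPON and 5.05 to 26.7 CPM in WT tumours, and Fgfr4 had 0.82 to 2.37 CPM in SPON and 0.78 to 1.49 CPM in WT tumours.

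The genes beside Met and Fgfr2 were read because of these values, after they had been seen, and RefSeq positions on GRCm38 were used. Met lies on chromosome 6 at 17463349 to 17573980. Capza2, which encodes an actin capping subunit and starts 63 kb beyond Met, had 3099, 179, 120.3, 3601 and 247 CPM in SPON replicates 1 to 5, against 71.7 to 92.4 CPM in WT tumours. Tes, 357.5 kb before Met, had 4895, 62.9, 101, 5265 and 230.4 CPM in SPON tumours, against 45.4 to 99.7 CPM in WT tumours. Cav2 and Cav1, the caveolin genes between them, were likewise high in SPON replicates 1 and 4, at 1434 and 1372 CPM for Cav2 and at 892 and 247 CPM for Cav1. Thus a run of neighbouring genes was high in the same SPON tumours as Met.

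The run was high in MYT and VEH tumours as well and, among the genes read, had different ends in different tumours. Neighbours were read only where their mean was at least 5 CPM over the 32 libraries, and genes below it were skipped. Cftr passed only through SPON replicate 4 and Foxp2 only through MYT, so neither can show how far the run extends. Capza2 averaged 2477 CPM in MYT and 2310 CPM in VEH tumours, and Tes 3752 CPM in MYT and 1723 CPM in VEH tumours. In M20_7 and VEH_7 tumours, Tes averaged 44.6 and 35.6 CPM, below the WT mean of 66.0 CPM, whereas Capza2 averaged 519 and 531 CPM and Cav1 1558 and 1645 CPM, above WT means of 83.0 and 24.6 CPM. Beyond Capza2, St7 had 44.1 CPM in SPON replicate 1 and 183.5 CPM in replicate 4, where Lsm8 reached 1079 CPM. In WT tumours St7 averaged 11.6 CPM and Lsm8 29.6 CPM. On the other side, beyond Tes, Mdfic had 34.4 CPM in SPON replicate 1 and 978 CPM in replicate 4, against a mean of 26.2 CPM in WT tumours. From Tes to Capza2, Cav1 alone had ranges that did not overlap between MYT and VEH, at 134 to 745 CPM in MYT and 4303 to 5677 CPM in VEH tumours, with a log2 fold change of -3.82. Outside that stretch, with Foxp2 left aside because its MYT values admitted it, ranges also did not overlap for Mdfic and Cftr. Mdfic had 463 to 1462 CPM in MYT and 93.8 to 223 CPM in VEH tumours. Cftr had 1.22 to 6.18 CPM in MYT and at most 0.21 CPM in VEH tumours. The farther gene 2610001J05Rik went the other way, at 12.55 to 26.08 CPM in MYT and 35.66 to 43.85 CPM in VEH tumours. Over all genes tested, ranges did not overlap for 16.9% as higher and 18.2% as lower in MYT.

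Around Fgfr2, on chromosome 7 at 130162451 to 130266808 by RefSeq, the pattern was shorter. The GENCODE M21 gene, used for exon length, runs from 130162451 to 133123350 and encloses Ate1, Nsmce4a and Tacc2. Whether this touches the counts was not tested. In SPON replicate 5 Ate1, 125 kb away, had 2345 CPM and Nsmce4a, 266 kb away, had 6804 CPM, against means of 39.2 and 40.5 CPM in WT tumours. The next gene, Tacc2, had 92.4 CPM and Wdr11, on the other side of Fgfr2, had 50.2 CPM in the same tumour, against WT means of 33.3 and 58.6 CPM. The other 4 SPON tumours had at most 40.3 CPM of Ate1 and 108 CPM of Nsmce4a. DNA copy number was not analysed here, and its part was not tested.

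**Figure D4:**
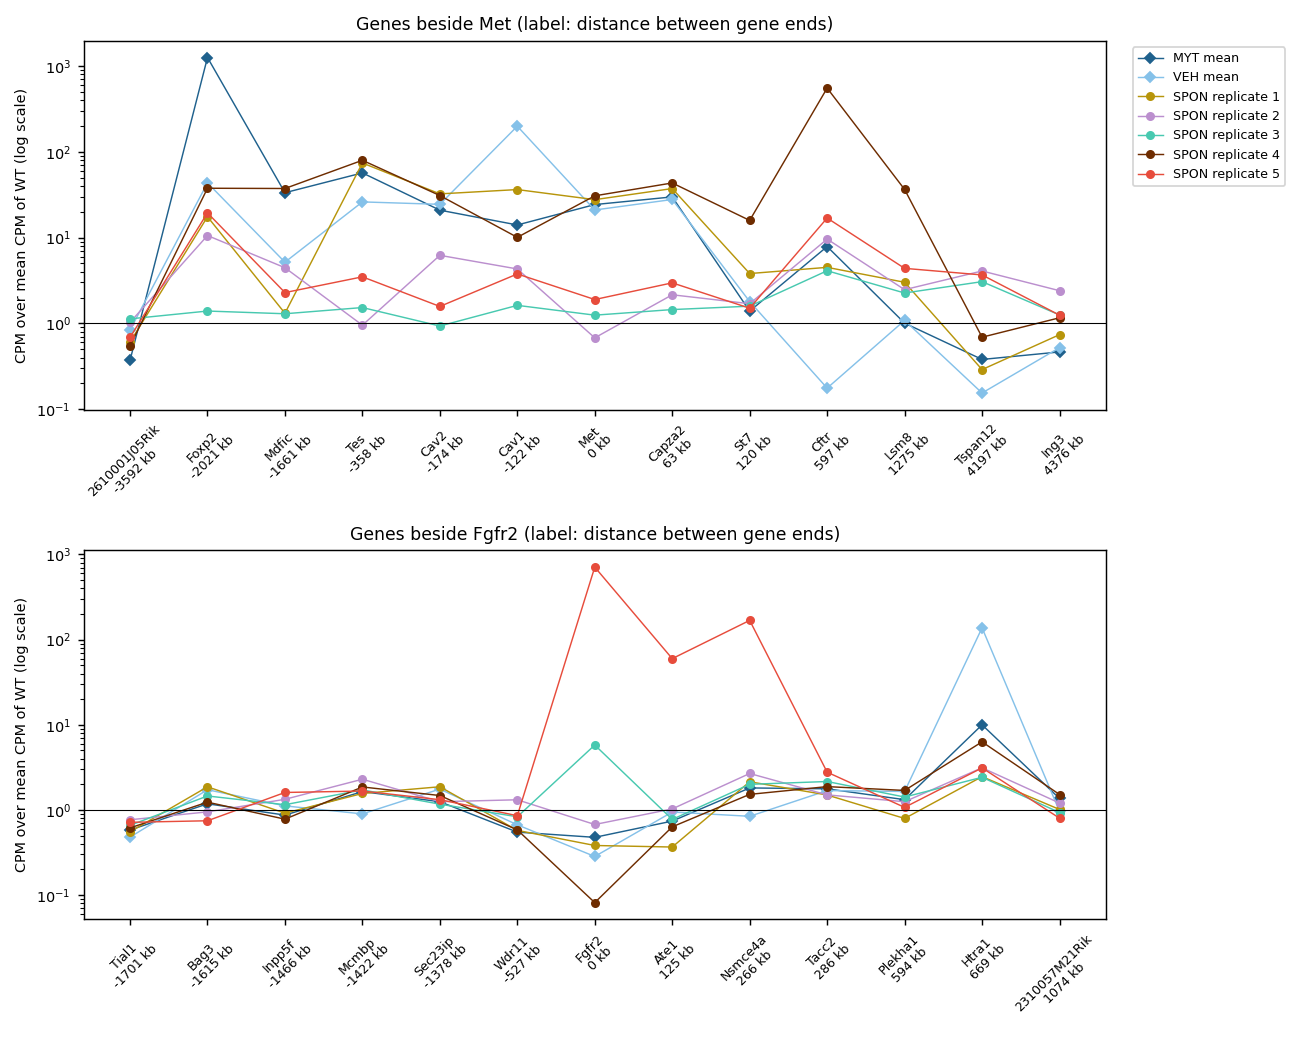
CPM over the mean CPM of WT tumours (vertical axis, log scale) of Met and Fgfr2 and the 6 expressed genes on either side of each, placed in genomic order with the distance between gene ends in kb. Diamonds are means of MYT and VEH tumours and circles are the 5 SPON tumours; SPON replicates 1 and 4 stand above the others from Tes to Capza2, and SPON replicate 5 from Fgfr2 to Nsmce4a.

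Of the 12 ligand genes of these receptor families tested between MYT and VEH, 1 was called higher and 5 lower, 50% in all against the 59.5% of all genes. Over all 7 pathway lists 12 of 51 genes were higher and 18 lower, 58.8% in all, so the lists were called about as often as genes in general. Of 3 FGF ligand genes tested 2 were lower. Fgf2 averaged 7.95 ± 1.99 CPM in MYT tumours (SD, n = 11) and 34.4 ± 16.3 CPM in VEH tumours (SD, n = 4), a log2 fold change of -2.11 ± 0.24, and Fgf7, a ligand of the epithelial FGFR2 isoform, had -2.68 ± 0.46. Of 4 PDGF ligand genes 1 was lower, Pdgfa at -0.96 ± 0.30. Among the ligands of the MET, KIT, IGF and AXL families 2 of 5 were lower and 1 higher. Hgf, the MET ligand, had 0.45, 0.88 and 2.82 CPM (lowest, median and highest) in MYT tumours and 27.1 to 43.1 CPM in VEH tumours, a log2 fold change of -5.07 ± 0.33 (edgeR adjusted p = 4.67e-09).

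Hgf fell, whereas Met itself was not called. Igf1, the main IGF1R ligand, had a log2 fold change of -3.44 ± 0.43 where Igf1r rose. Pros1, which encodes protein S, a ligand of the AXL relatives, rose by 0.88 ± 0.18. The Pros1 call was lost with 1 spread over 32 libraries, with adjusted p-values from 1.05e-05 to 0.134 over 19 alternatives. The KIT ligand gene Kitl (77.2 CPM in MYT, 53.8 CPM in VEH) and Gas6 (80.0 CPM in MYT, 93.1 CPM in VEH) were not called.

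**Figure D5:**
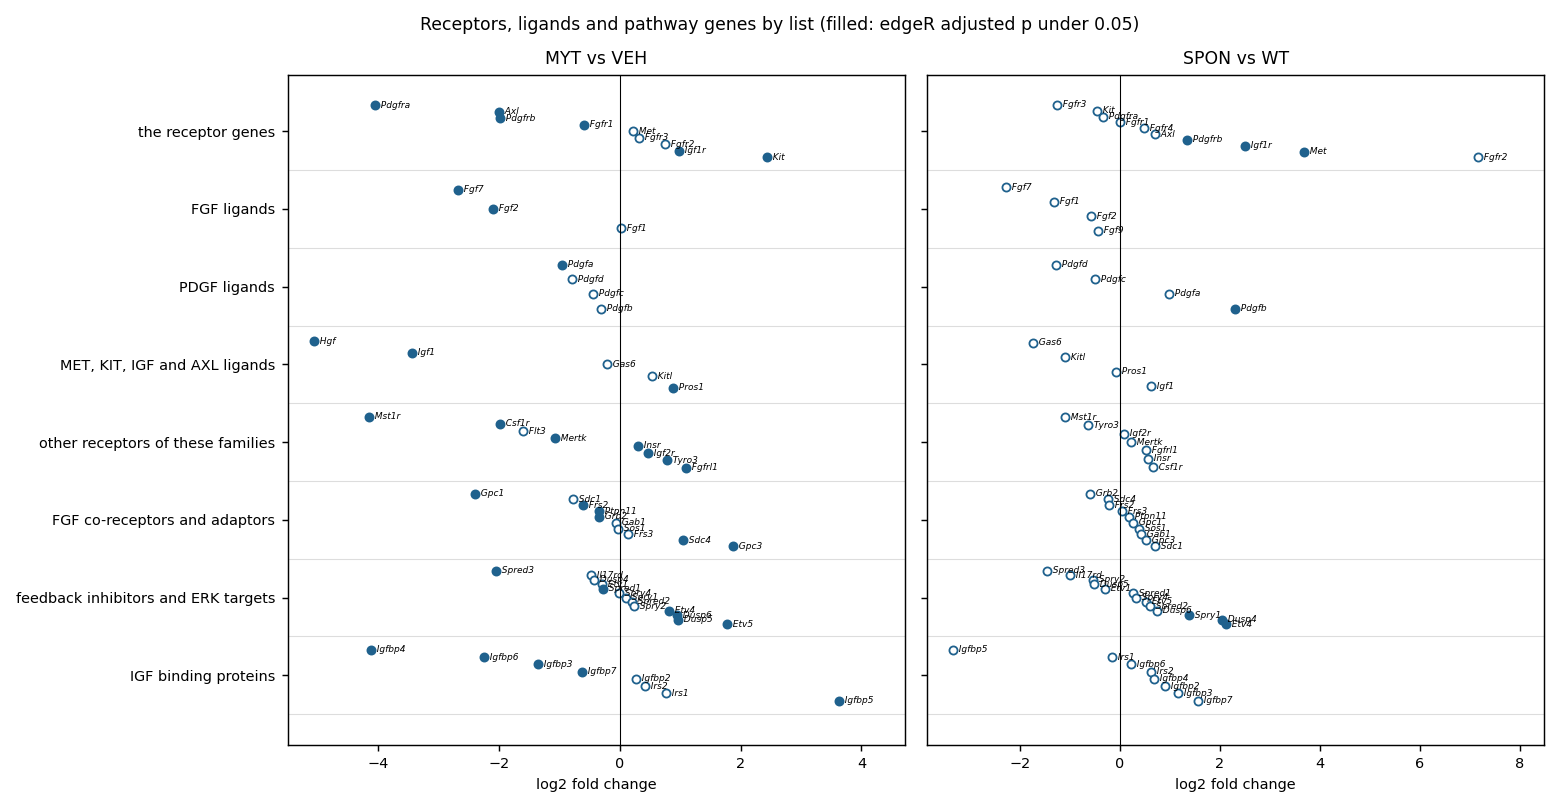
Log2 fold changes (horizontal axis) of the receptor genes and of 7 lists of ligands, related receptors, adaptors, feedback genes and binding proteins in MYT against VEH (left) and SPON against WT (right); 1 point per tested gene, filled where the edgeR test was passed. Hgf lies farthest to the left and Igfbp5 farthest to the right among the pathway genes in MYT against VEH, and 4 pathway genes are filled in SPON against WT.

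Related receptors moved in both directions, with 4 of 8 higher and 3 lower in MYT. Fgfrl1, an FGF receptor that lacks the kinase, had a log2 fold change of 1.09 ± 0.16 and Tyro3, a relative of Axl, of 0.79 ± 0.25. Mertk, the other relative of Axl, had -1.07 ± 0.28, Csf1r, a relative of Kit carried by macrophages, -1.98 ± 0.20, and Mst1r, a relative of Met, -4.15 ± 0.31. Mst1r was low in MYT tumours at 0.84 to 2.66 CPM, against 10.1 to 52.9 CPM in VEH tumours. Of 10 FGF co-receptors and adaptors 2 were higher and 4 lower, with the heparan sulfate carriers Sdc4 at 1.04 ± 0.21 and Gpc1 at -2.39 ± 0.27.

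The RAS-ERK cascade below these receptors induces a known set of genes, and of 13 such targets and feedback inhibitors 4 were higher and 2 lower in MYT, where 30.5% of all genes were higher and 29% lower. The ETS factor gene Etv5 averaged 255 ± 47.7 CPM in MYT tumours (SD, n = 11) and 75.03 ± 20.6 CPM in VEH tumours (SD, n = 4), a log2 fold change of 1.77 ± 0.18. Etv4 rose by 0.82 ± 0.18, and the phosphatase genes Dusp6 and Dusp5 by 0.94 ± 0.19 and 0.96 ± 0.29, whereas the inhibitor gene Spred3 had -2.05 ± 0.24. Of 8 genes of IGF binding proteins and IRS adaptors 1 was higher, Igfbp5 at 3.62 ± 0.58, and 4 were lower, among them Igfbp4 at -4.12 ± 0.26 and Igfbp6 at -2.25 ± 0.33. The list medians ran from -2.11 for FGF ligands to 0.10 for the ERK targets, against 0.04 over all genes.

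None of these lists held a called gene in M20_7 against VEH_7. The difference between both pairs was called for Hgf (-4.96 ± 0.50), Igf1 (-3.74 ± 0.68), Fgf2 (-2.17 ± 0.42), Mst1r (-4.21 ± 0.53), Igfbp4 (-4.03 ± 0.44), Igfbp5 (3.87 ± 0.70) and Etv5 (1.97 ± 0.25). Hgf had 36.1 to 41.4 CPM in M20_7 and 29.4 to 47.5 CPM in VEH_7 tumours, and Etv5 had 49.9 to 65.7 CPM in M20_7 and 62.1 to 71.3 CPM in VEH_7 tumours.

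Between SPON and WT 4 of 50 pathway genes were called, all higher in SPON, a share of 8% against 8.38% of all genes. They were Pdgfb, the PDGFRB ligand gene, and the ERK targets Etv4, Dusp4 and Spry1, 3 of 13 genes of that list. Etv4 had a log2 fold change of 2.12 ± 0.27 (edgeR adjusted p = 0.00177) and Spry1, a feedback inhibitor of FGF signalling, of 1.38 ± 0.27 (0.013). The calls of Pdgfb (2.30 ± 0.61) and Dusp4 (2.04 ± 0.54) were lost without SPON replicate 4 or any 1 of WT replicates 1 to 4, and also without SPON replicate 1 for Pdgfb and SPON replicate 5 for Dusp4. Without both SPON replicates 1 and 4 the Pdgfb value was 0.91. No ligand of the MET, KIT, IGF and AXL families was called among 4 tested, and none of the 10 FGF co-receptors and adaptors, 7 related receptors or 8 IGF genes.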

How the data were processed

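RNA of 33 mouse mammary tumours was sequenced. The submitters' processing notes name STAR 2.7.10a and the build GRCm38, with HTSeq and edgeR; the annotation, kit and strandedness are not given in the sources used here, so reads of genes that overlap on opposite strands cannot be told apart. The deposited table held whole-number counts, and all results come from it. The authors' second table held log2 CPM values, which lay within 0.0576 of values recomputed here (TMM, prior count 2) and were not used further.

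Each comparison was fitted on its own groups by the quasi-likelihood test of edgeR 4.0.16 under R 4.3.3, after filterByExpr and TMM. P-values were adjusted over all genes tested by the Benjamini-Hochberg method, with 0.05 as the threshold, and the standard error was taken from the F statistic. The fits were tested on simulated counts. Replicates were numbered in accession order and pair nothing. No 2 libraries of a group were alike within counting error, since chi-square per degree of freedom was at least 16.1 over the 90 pairs. Exon lengths came from GENCODE M21, and positions and promoters from RefSeq.

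Alternatives were DESeq2 size factors, no filter, DESeq2 1.42.0, 1 fit over 32 libraries and each library left out; leaving out SPON replicates 1 and 4 together was added after the data had been seen. All 10 receptor genes are named in each comparison, with Fgfr4 below the filter in MYT against VEH. Genes of 7 pathway lists and 11 marker lists are counted, with values for those named, and nearest profiles are given for the 4 receptors whose group means of log2 CPM span the widest range. The receptor genes and the lists were chosen with earlier results of these data known. The marker lists for basal epithelium, endothelium, adipocytes, skeletal muscle and T cells had 2 of 4, 0 of 7, 0 of 1, 0 of 2 and 0 of 4 tested genes called higher and 0, 7, 1, 2 and 0 called lower in MYT against VEH.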

Additional observations from a re-analysis of the deposited data

Results flagged for a closer look

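Among 40 sets of values (each receptor gene in each group of 4 to 10 samples), 6 had a library whose gap to its nearest neighbour was large for the group by Dixon's test, which chance alone gives in about 1 in 20 sets. Fgfr2 had 5055 CPM in SPON replicate 5, with the nearest SPON tumour at 41.2 CPM. Fgfr2 also had 18.9 CPM in WT replicate 2, with the nearest WT tumour at 7.12 CPM. Pdgfrb had 106 CPM in the same SPON replicate 5, against 53.1 CPM in the nearest, and 379 CPM in M20_7 replicate 1, against 246 CPM in the nearest. In WT replicate 4, Pdgfra had 21.6 CPM, against 13.73 CPM in the nearest, and Met had 121 CPM, against 78.3 CPM in the nearest. The groups MYT with 11 tumours and VEH_7 with 3 could not be examined in this way.

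For 5 receptor genes the log2 fold change of RP-6306 over vehicle tumours differed by the edgeR test between the pair MYT and VEH and the pair M20_7 and VEH_7. Treatment and tumour origin cannot be told apart in MYT and VEH. The differences were -3.29 for Pdgfra, -1.98 for Pdgfrb, 2.15 for Kit, 1.22 for Igf1r and -2.03 for Axl. In M20_7 against VEH_7 the same genes had log2 fold changes of -0.76, 0.01, 0.29, -0.23 and 0.05, none of them called.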

How the results depend on the processing

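No paired analysis was possible because the labels give no replicate numbers that groups share. The calls of Pdgfra, Pdgfrb, Kit, Igf1r and Axl in MYT against VEH and in the difference between pairs held under every alternative run. Group means of the receptors moved by less than 1 SD. Leaving out 1 library cannot move a mean by 1 SD, so this limit tests nothing there. The Fgfr2 mean in SPON went from 1021 to 12.3 CPM without SPON replicate 5. In M20_7 against VEH_7 the count over all genes was 6 without a filter and 55 with DESeq2, against 0. For SPON against WT it was 2648 with DESeq2, 5472 with 1 fit over 32 libraries and 506 to 1887 without 1 library, against 1303, and the receptors called were 6 in that 1 fit and 1 to 3 without 1 library, against 3. The low counts came without WT replicate 1, 2, 3 or 4 (550, 508, 545 and 506 genes, 1 receptor each). The difference between pairs gave 3501 genes in 1 fit over 32 libraries, against 6151. In that 1 fit the log2 fold change was -0.0015 for Pdgfrb in M20_7 against VEH_7 and -0.0053 for Fgfr1 in SPON against WT, and Fgfr1 had -0.45 without SPON replicates 1 and 4. Without 1 library, values not called changed sign for Pdgfrb (-0.19 to 0.092), Met (-0.045 to 0.16), Axl (-0.0089 to 0.083) and Fgfr3 (-0.13 to 0.26) in M20_7 against VEH_7, for Fgfr1 in SPON against WT (-0.41 to 0.36) and for Fgfr2 in the difference (-0.61 to 0.38). The causes were not tested. Fgfr4, near 0 in VEH, limits what this depth can show.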
